A study of Mus musculus with 12 samples.

Results

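Endothelial activation and leukocyte adhesion genes were described in brain RNA of sham and ischemic mice. The 10 genes Icam1, Vcam1, Sele, Selp, Angpt2, Esm1, Vwf, Tm4sf1, Lrg1 and Apln were chosen by gene symbol, and all 10 were found among the 31208 genes of the count table. The experiment compared 12 C57BL/6 mice of 8 weeks of age, which the methods describe as male. There were 4 sham mice, 4 mice at 6 h after ischemia that had been preconditioned with vehicle, and 4 mice at 6 h after ischemia that had been preconditioned with lactate. The ischemic mice had the left middle cerebral artery occluded, and vehicle or lactate was injected into a cerebral ventricle before surgery. The labels say lactate, while the methods name D-lactate for the sequenced brains. Whether the ischemic groups differ from sham mice by an injection as well as by the occlusion is not given in the sources used here. RNA of bulk brain tissue was sequenced, so fewer cells of a type and less RNA per cell cannot be told apart. The labels do not say whether mice shared a litter, a surgery day or a library batch.

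Endothelial cells line the vessels and, when stimulated by cytokines, thrombin or low oxygen, place adhesion molecules and stored proteins on their inner surface. Leukocytes are first slowed by selectins and are then held by the immunoglobulin-like ligands Icam1 and Vcam1, which bind leukocyte integrins. Storage granules of endothelial cells hold Vwf, Selp and Angpt2, so the release of these proteins can precede any change in their mRNA. Angpt2 counters Angpt1 at the receptor Tek, while Esm1 and Apln mark the tip cells of growing vessels.

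The libraries were similar in depth, with total counts per mouse of 7363426 to 8971103 in sham mice, 6815920 to 10677224 in vehicle-treated mice and 7395179 to 8624354 in lactate-treated mice. The floor of detection was set at 3 counts, or 0.281 to 0.440 CPM (the count of a gene scaled to the total of its mouse). The tissue held endothelial RNA in every mouse, since the summed level of 12 endothelial markers was 401 to 419 CPM in sham mice, 407 to 487 CPM in vehicle-treated mice and 446 to 512 CPM in lactate-treated mice. Vehicle mouse 2 stood apart by choroid plexus markers, at 1841 CPM against 4.40 to 14.5 CPM in the other vehicle-treated mice. These markers summed to 1.22 to 4.35 CPM in sham mice and 9.46 to 18.6 CPM with lactate, so every ischemic mouse lay above every sham mouse. Ttr, most of the sum in the ischemic groups, rose with lactate (log2 3.25 ± 0.36 SE, adjusted p = 9.50e-05, edgeR). With vehicle it was at 8.32 ± 1.97 (adjusted p = 0.0620) and was not called. It alone of the 5 markers was high enough to be tested against sham. Over the sham and the lactate-treated mice, Folr1 had 21 and 23 counts, Kcne2 1 and 3, Kl 4 and 11, and Clic6 5 and 15. The part of choroid plexus in the levels of the members was not tested. Vehicle mouse 1 differed most from the other vehicle-treated mice in counts over all genes, with a chi-square per degree of freedom of 32.1 to 36.2 against 14.6 to 16.7 among the others. Without it 369 genes were called with vehicle in place of 250.

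The members lie on 8 chromosomes of GRCm38, and all are protein-coding genes in the GENCODE annotation. Sele (chr1:164048234-164057677) and Selp (chr1:164115264-164150026) are neighbours on the plus strand of chromosome 1. Promoter sequence from RefSeq (GRCm38.p6, the window of 250 bases before and 50 bases after a start site) was found for 7 of the 10 members, which leaves out Vcam1, Angpt2 and Vwf. The sequences below are the 250 bases before the start of Lrg1, Esm1 and Icam1, whose sham and ischemic mice did not overlap in level, and of Tm4sf1, which rose with lactate. Capitals mark the letters of 3 motifs searched on both strands, which were the NF-kappa B consensus, the AP-1 motif TGANTCA and the core of the hypoxia response element, ACGTG or GCGTG.
Lrg1 (chr17:56121947-56122196, minus strand): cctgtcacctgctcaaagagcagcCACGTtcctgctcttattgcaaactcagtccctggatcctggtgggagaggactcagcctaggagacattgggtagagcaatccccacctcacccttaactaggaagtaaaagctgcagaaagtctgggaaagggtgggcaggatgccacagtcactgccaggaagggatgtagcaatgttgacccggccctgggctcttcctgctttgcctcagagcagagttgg
Tm4sf1 (chr3:57301989-57302238, minus strand): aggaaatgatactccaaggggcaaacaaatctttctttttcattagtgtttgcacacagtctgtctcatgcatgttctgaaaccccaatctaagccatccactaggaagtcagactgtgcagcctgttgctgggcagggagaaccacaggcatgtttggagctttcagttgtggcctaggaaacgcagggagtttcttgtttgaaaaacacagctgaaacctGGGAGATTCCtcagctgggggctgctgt
Esm1 (chr13:113209409-113209658, plus strand): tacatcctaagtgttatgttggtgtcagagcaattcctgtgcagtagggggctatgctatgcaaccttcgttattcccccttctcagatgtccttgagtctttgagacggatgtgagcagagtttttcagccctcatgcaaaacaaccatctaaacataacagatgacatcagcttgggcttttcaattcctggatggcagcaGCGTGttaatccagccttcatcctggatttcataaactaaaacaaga
Icam1 (chr9:21015690-21015939, plus strand): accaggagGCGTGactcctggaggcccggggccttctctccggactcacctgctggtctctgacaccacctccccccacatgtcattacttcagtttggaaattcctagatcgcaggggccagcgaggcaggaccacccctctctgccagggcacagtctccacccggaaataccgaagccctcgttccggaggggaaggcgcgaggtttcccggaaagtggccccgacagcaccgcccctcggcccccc
The hypoxia core was found in Lrg1 at bases -226 to -222, in Esm1 at -47 to -43 and in Icam1 at -242 to -238, counted from the start site. Of all 32851 promoters of the same length, 43.8% hold this core, as did 3 of the 7 members. In Tm4sf1 the NF-kappa B consensus lay at -28 to -19, and 4.51% of all promoters hold it. The AP-1 motif, present in 7.81% of all promoters, was found in Sele at -73 to -67 and in Selp at -139 to -133. A match of letters is a description of the sequence and not a bound site. Only exact matches to these motifs were counted, so a promoter without a match may still hold a site with other letters.

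The first question was which of these genes differed after 6 h of ischemia in the vehicle-treated mice. Lrg1, a secreted glycoprotein that modulates TGF-beta signaling in vessels, was the member that rose. Angpt2, Icam1 and Esm1 were also higher in each of the 4 vehicle-treated mice than in any sham mouse, as were 4.14% of the 17019 genes tested. In edgeR, Angpt2 and Icam1 did not pass the adjusted threshold, and Esm1 was too low to be tested, while DESeq2 and limma voom called Angpt2. Vcam1, Vwf, Tm4sf1 and Apln overlapped between the groups. Over the whole table, 1.29% of 17019 genes tested were higher with vehicle at an adjusted p under 0.05 and 0.182% were lower. With lactate, 8.76% of 17262 genes were higher and 3.55% lower. In that comparison Lrg1, Angpt2 and Tm4sf1 rose, and Icam1, Angpt2, Esm1 and Lrg1 were again higher in each mouse than in any sham mouse, as were 10.4% of all genes tested. Between lactate-treated and vehicle-treated mice no member passed the test.

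**Figure D1:**
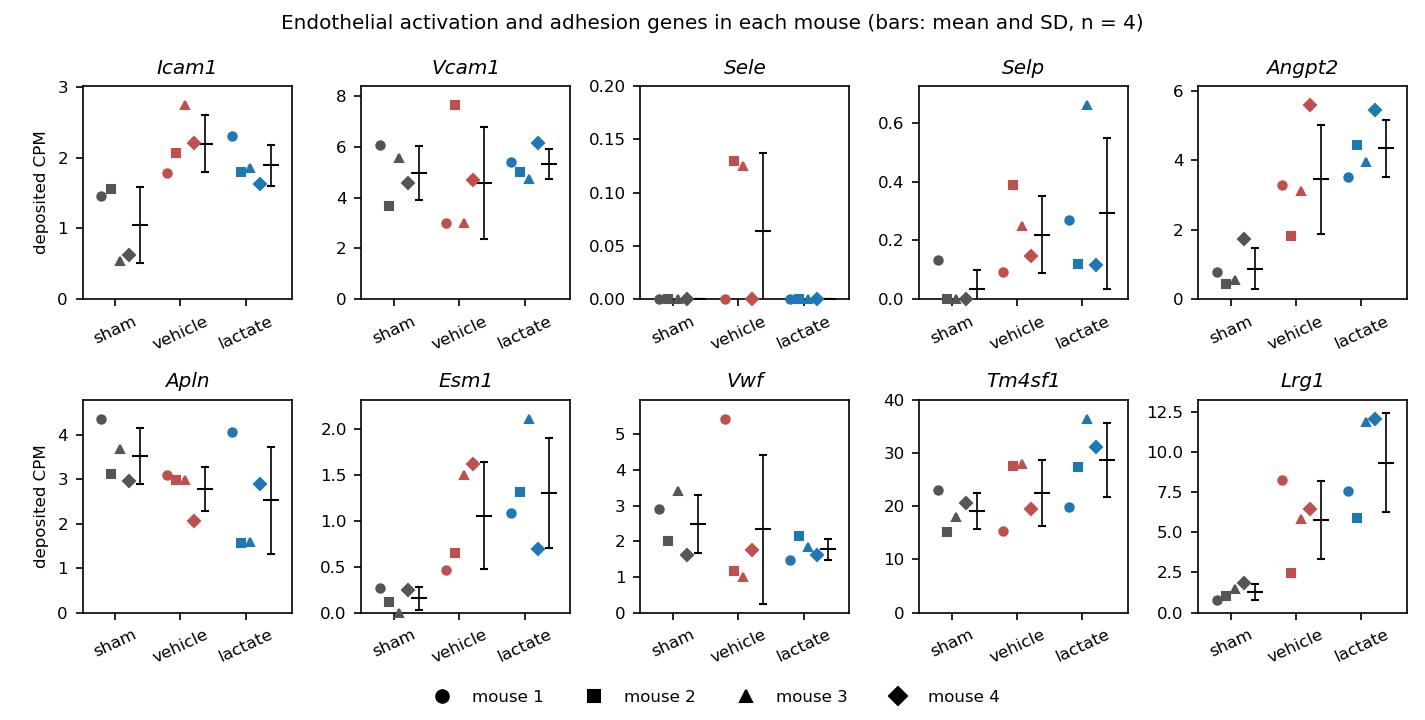
Deposited CPM of the 10 members in each of the 12 mice, with a symbol per mouse number and the mean and SD of each group of 4 beside the points. The y axes start at 0 and differ between genes. Icam1, Angpt2, Esm1 and Lrg1 are higher in every ischemic mouse than in any sham mouse, whereas Vcam1, Vwf, Tm4sf1 and Apln overlap, and Sele and Selp are near 0.

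Icam1 (ENSMUSG00000037405, chr9:21015985-21028817) encodes the endothelial ligand of the leukocyte integrins that contain Itgb2. Its level was 1.45, 1.56, 0.543 and 0.617 CPM in sham mice 1 to 4. In the vehicle-treated mice it was 1.78, 2.07, 2.74 and 2.20 CPM, and in the lactate-treated mice 2.30, 1.80, 1.85 and 1.62 CPM. The ischemic mice lay above all sham mice in both groups, although these levels rest on 4 to 22 counts per mouse. The mean was 1.04 ± 0.537 CPM in sham mice, 2.20 ± 0.401 CPM with vehicle and 1.89 ± 0.288 CPM with lactate (SD, n = 4 each). Neither difference passed the test, with a log2 fold change in edgeR of 1.08 ± 0.39 (SE, adjusted p = 0.248) with vehicle and 0.86 ± 0.38 (SE, adjusted p = 0.163) with lactate.

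Vcam1 (ENSMUSG00000027962, chr3:116109949-116129688), the endothelial ligand of the integrin with the Itga4 chain, did not show this pattern. Its level was 6.07, 3.68, 5.57 and 4.56 CPM in sham mice, 3.00, 7.64, 2.99 and 4.69 CPM in vehicle-treated mice and 5.41, 5.03, 4.75 and 6.15 CPM in lactate-treated mice. The highest vehicle value belonged to mouse 2, in which choroid plexus markers were highest. The log2 fold change against sham was -0.08 ± 0.32 (SE, adjusted p = 0.940, edgeR) with vehicle, or -0.44 (adjusted p = 0.540) without mouse 2. With lactate it was 0.14 ± 0.22 (SE, adjusted p = 0.723).

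The selectins were at the limit of detection at this depth. Sele (ENSMUSG00000026582), or E-selectin, which endothelial cells make after cytokine stimulation, had 0 counts in the 4 sham mice and in the 4 lactate-treated mice. It had 1 count each in vehicle mice 2 and 3 and 0 in mice 1 and 4. Over the 32025830 pooled counts of the sham mice, 0 counts allow a level of up to 0.0937 CPM, and over the lactate-treated mice up to 0.0939 CPM. Selp (ENSMUSG00000026580), or P-selectin, which is also stored in platelets, had 1, 0, 0 and 0 counts in sham mice, 1, 3, 2 and 1 counts in vehicle-treated mice and 2, 1, 5 and 1 counts in lactate-treated mice. All 8 ischemic mice thus held at least 1 read of Selp, against 1 of the 4 sham mice. The difference in mean log2(CPM + 1) was 0.30 with lactate (two-sided exact permutation test, p = 0.0857, adjusted p = 0.193 over 9 tests) and 0.24 with vehicle (exact p = 0.0571, adjusted p = 0.171). The smallest p that 4 against 4 mice allow is 0.0286. Pooled over mice, the Selp level was 6.74 times that of sham mice with vehicle (exact 95% interval 0.866 to 304, counting error only) and 9.02 times with lactate (1.25 to 395), against 1 count in sham mice. These intervals leave out the spread between mice, which the permutation tests use and by which neither difference passed. Neither selectin passed the count filter of the fit, and a change in Sele was not detectable at this depth.

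Angpt2 (ENSMUSG00000031465, chr8:18690263-18741562) is the antagonist ligand of the endothelial receptor Tek. It was measured at 0.791, 0.446, 0.543 and 1.73 CPM in sham mice, with the highest value in mouse 4. In vehicle-treated mice it was 3.28, 1.81, 3.11 and 5.58 CPM, and in lactate-treated mice 3.52, 4.43, 3.96 and 5.45 CPM. Every ischemic mouse lay above every sham mouse, although vehicle mouse 2 exceeded sham mouse 4 only narrowly. The mean was 0.877 ± 0.585 CPM in sham mice, 3.44 ± 1.56 CPM with vehicle and 4.34 ± 0.830 CPM with lactate (SD, n = 4 each). Against sham, the log2 fold change with lactate was 2.32 ± 0.38 (SE, adjusted p = 0.00198, edgeR). With vehicle it was 1.98 ± 0.47 (SE, adjusted p = 0.0609), which misses the threshold, whereas DESeq2 called it (adjusted p = 0.00746). Of the other settings tried on vehicle, 5 more brought its adjusted p under 0.05, and the range over all settings was 0.00746 to 0.194.

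Apln (ENSMUSG00000037010, chrX:48025146-48034853) encodes apelin, a peptide ligand secreted by endothelial tip cells and by neurons. Its level was 4.35, 3.12, 3.67 and 2.96 CPM in sham mice, 3.09, 2.98, 2.99 and 2.05 CPM in vehicle-treated mice and 4.06, 1.56, 1.58 and 2.90 CPM in lactate-treated mice. The groups overlapped, and the lactate-treated mice spread most, with an SD of 1.20 CPM. Its log2 fold change against sham was -0.29 ± 0.26 (SE, adjusted p = 0.684, edgeR) with vehicle and -0.45 ± 0.32 (SE, adjusted p = 0.411) with lactate. Its receptor gene Aplnr had 3 counts over all sham mice and 1 count over each ischemic group.

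Esm1 (ENSMUSG00000042379, chr13:113209659-113218098) encodes endocan, a proteoglycan secreted by endothelial cells that respond to VEGF. In sham mice it had 2, 1, 0 and 2 counts (0.264, 0.111, 0 and 0.247 CPM). In vehicle-treated mice it had 5, 5, 12 and 11 counts (0.468, 0.648, 1.49 and 1.61 CPM), and in lactate-treated mice 8, 11, 16 and 6 counts (1.08, 1.32, 2.11 and 0.696 CPM). No ischemic mouse was as low as a sham mouse. The pooled level was 6.36 times that of sham mice with vehicle (exact 95% interval 2.47 to 20.9, counting error only) and 8.22 times with lactate (3.25 to 26.6). Esm1 missed the filter of the fits against sham, and the exact permutation test gave its smallest possible p of 0.0286 in both comparisons, or 0.129 after adjustment over 9 tests. With no filter on low counts, edgeR gave an adjusted p of 0.00818 with lactate and 0.0937 with vehicle.

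Vwf (ENSMUSG00000001930, chr6:125546774-125686679), the platelet-tethering protein of endothelial storage granules, was set by 1 mouse in the vehicle group. Its level was 2.90, 2.01, 3.40 and 1.60 CPM in sham mice, 5.43, 1.17, 0.996 and 1.76 CPM in vehicle-treated mice and 1.49, 2.16, 1.85 and 1.62 CPM in lactate-treated mice. Vehicle mouse 1 held 58 of the 87 vehicle counts, and the same mouse had the highest summed level of platelet markers, at 103 CPM against 47.5 to 60.5 CPM in the other vehicle-treated mice. Most of that sum was 1 gene, Gp1bb, which reached 89.9 CPM in the vehicle group and was already at a mean of 36.9 CPM in sham mice. Gp9 and Ppbp had 2 and 3 counts over the vehicle group, and 0 of the 3 platelet markers tested were called with vehicle. Vehicle mouse 1 was also highest in neuron markers, at 5481 CPM against 3594 to 3854 CPM in the other vehicle-treated mice. The part of platelets or of other cells in the Vwf level was not tested. The log2 fold change of Vwf with vehicle was 0.02 ± 0.49 (SE, adjusted p = 0.993, edgeR), but -0.88 (adjusted p = 0.258) without vehicle mouse 1. With lactate it was -0.43 ± 0.31 (SE, adjusted p = 0.405).

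Tm4sf1 (ENSMUSG00000027800, chr3:57285611-57301988) encodes a tetraspanin-like membrane protein of endothelial cells. Its 132 to 276 counts per mouse are more than those of any other member, so counting error weighs least here. The level was 22.9, 15.05, 17.9 and 20.6 CPM in sham mice, 15.4, 27.5, 27.9 and 19.4 CPM in vehicle-treated mice and 19.9, 27.3, 36.4 and 31.1 CPM in lactate-treated mice. With vehicle, 2 mice lay above the sham range and 2 within it, and with lactate 3 of 4 lay above it. Tm4sf1 rose 1.53-fold with lactate (log2 0.62 ± 0.18 SE, adjusted p = 0.0442, edgeR), while vehicle gave 0.27 ± 0.22 (SE, adjusted p = 0.634). The lactate call is close to its threshold: it was lost in 10 of 17 other settings, with adjusted p up to 0.130.

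Lrg1 (ENSMUSG00000037095, chr17:56119678-56122001) had the largest fold change of the 7 members in the main edgeR fits against sham. These fits do not hold Esm1, Sele and Selp. With vehicle the rank depends on the setting, since limma voom gave a log2 fold change of 1.88 for Angpt2 and 1.84 for Lrg1. The level of Lrg1 was 0.791, 1.00, 1.49 and 1.85 CPM in sham mice. In vehicle-treated mice it was 8.24, 2.46, 5.85 and 6.46 CPM, and in lactate-treated mice 7.57, 5.87, 11.9 and 12.1 CPM. The lowest ischemic value, in vehicle mouse 2, was still above the highest sham value. Lrg1 rose 4.57-fold with vehicle (log2 2.19 ± 0.40 SE, adjusted p = 0.0155, edgeR) and 7.35-fold with lactate (log2 2.88 ± 0.33 SE, adjusted p = 0.000138). The vehicle call was lost when sham mouse 1, 2 or 3 was left out (adjusted p = 0.0655, 0.0708 and 0.0573), with log2 fold changes of 2.02, 2.10 and 2.26 in that order. Without vehicle mouse 2 it was 2.45 (adjusted p = 0.00398), and without vehicle mouse 1 it was 1.96 (adjusted p = 0.0284).

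**Figure D2:**
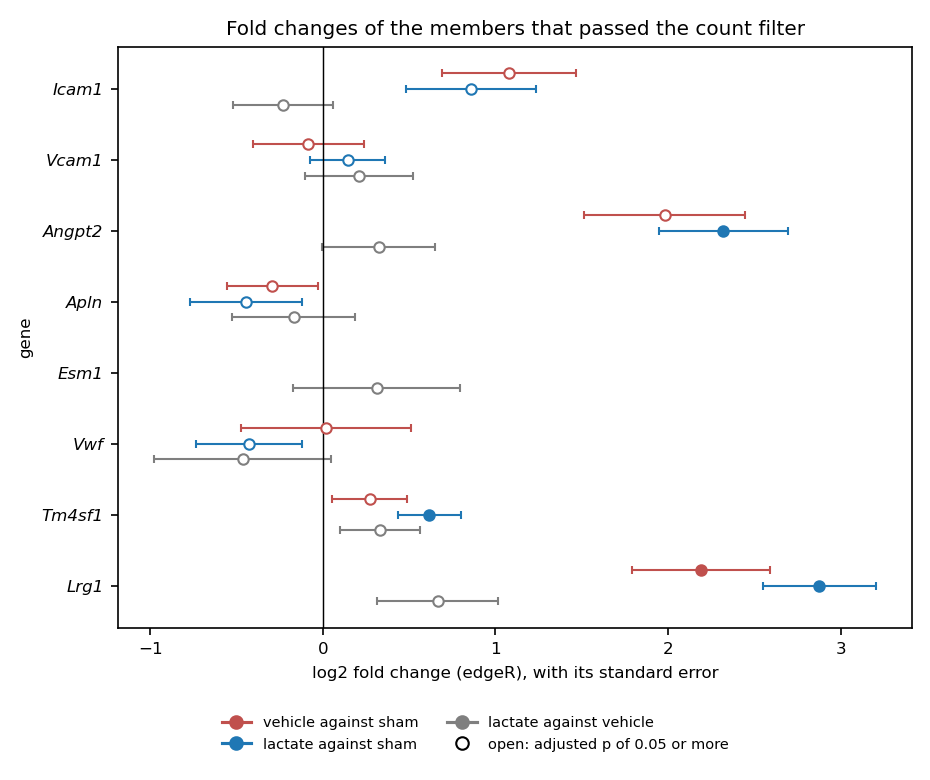
Log2 fold changes of the members that passed the count filter, with their standard errors from edgeR, in the 3 comparisons of 4 against 4 mice. Filled points have an adjusted p under 0.05. Lrg1 is filled in both comparisons with sham (2.19 and 2.88), Angpt2 (2.32) and Tm4sf1 (0.62) with lactate only, and no point is filled between lactate and vehicle.

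Of the 7 members tested against sham, edgeR called 1 higher with vehicle (1.29% of all genes), where DESeq2 and limma voom called 2 each. With lactate each of these tools called 3 (8.76% of all genes in edgeR). In edgeR, 0 members were called lower in either comparison, and 0 were lower at an unadjusted p under 0.05. At an unadjusted p under 0.05 with a fold change of at least 1.5, 6.50% of genes were higher and 3.01% lower, and 3 members, Lrg1, Angpt2 and Icam1, were higher. With lactate these shares were 11.9% and 5.65%, and 4 members, the former 3 with Tm4sf1, were higher. The members' median log2 fold change was 0.27 with vehicle and 0.62 with lactate, against 0.003 and -0.03 over all genes tested. Angpt2 and Icam1 had under 1 CPM in several sham mice and could pass the filter through the ischemic mice alone, so these counts and medians describe only the genes tested. Esm1, Sele and Selp were not in these fits. The 4 sham mice enter both comparisons, whose values for a member are therefore not independent.

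The comparison of lactate with vehicle asked whether preconditioning changed these genes in ischemic brain. In edgeR, 0 of 8 members tested were called, while 1 of 17419 genes was called in either direction (0.00574%). At an unadjusted p under 0.05 with a fold of at least 1.5, which 3.76% of all genes passed as higher and 2.47% as lower, 0 members passed, and no other setting tried called a member. The log2 fold change of Lrg1 was 0.67 ± 0.35 (SE, adjusted p = 0.605, edgeR), that of Tm4sf1 0.33 ± 0.23, that of Angpt2 0.32 ± 0.33, that of Esm1 0.31 ± 0.49 and that of Vcam1 0.21 ± 0.32. Icam1 was at -0.23 ± 0.29, Vwf at -0.47 ± 0.51 and Apln at -0.17 ± 0.36. Without vehicle mouse 2, Lrg1 was at 0.42, Angpt2 at 0.12, Esm1 at 0.15, Tm4sf1 at 0.44, Vcam1 at 0.57 and Vwf at -0.69, and without vehicle mouse 1, Lrg1 was at 0.92, Esm1 at 0.04, Tm4sf1 at 0.19, Vcam1 at 0.05 and Vwf at 0.44. The order of the members thus depends on these mice, which are not the only settings that move the values. Over all settings Angpt2 ran from 0.12 to 0.64 and Esm1 from -0.012 to 0.58. The ranges of the 2 groups overlapped for every member with counts in both. A difference between the ischemic groups was thus not detectable for these genes. Tm4sf1 and Angpt2, called with lactate alone in the main edgeR fits, were not shown to differ between lactate and vehicle. Angpt2 was also called with vehicle in other settings, among them DESeq2 and limma voom.

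The binding partners of the members were read next, in lists of 63 genes of the same pathways. Itgb2, the shared beta chain of the integrins that bind Icam1, rose with lactate (log2 1.26 ± 0.38 SE, adjusted p = 0.0449, edgeR) and was at 1.32 ± 0.41 (adjusted p = 0.175) with vehicle. It was at 0.407 to 1.11 CPM in sham mice, 1.31 to 2.61 CPM with vehicle and 1.32 to 2.44 CPM with lactate, so neither ischemic group overlapped with sham. Itgal, the alpha chain of the main Icam1 receptor of lymphocytes, had 2 counts in each group. Itga4, the partner chain for Vcam1, was at -0.13 ± 0.23 with vehicle (adjusted p = 0.855) and -0.41 ± 0.19 with lactate (adjusted p = 0.184). Selplg, the ligand of the selectins on leukocytes, was at -0.0040 ± 0.24 (adjusted p = 0.996) and 0.35 ± 0.19 (adjusted p = 0.252). Cd44, a further leukocyte receptor that reactive glia also make, rose with vehicle (2.85 ± 0.60, adjusted p = 0.0335) and with lactate (3.73 ± 0.58, adjusted p = 0.00157). Of the 8 leukocyte genes, 6 were tested, and in edgeR 1 rose with vehicle (1.29% of all genes) and 2 with lactate (8.76% of all genes). With lactate DESeq2 called 1 of them and limma voom 3. Microglia also make Itgb2, and the 7 microglia and macrophage markers summed to 253 to 292 CPM in sham mice, 184 to 258 CPM with vehicle and 305 to 329 CPM with lactate. With vehicle P2ry12 (log2 -1.01 ± 0.20 SE, adjusted p = 0.0275, edgeR) and Cx3cr1 (-1.21 ± 0.23, adjusted p = 0.0201) fell. With lactate C1qa rose (log2 1.40 ± 0.18 SE, adjusted p = 0.000323, edgeR) and P2ry12 fell (-1.10 ± 0.19, adjusted p = 0.00265). Gfap, a marker of reactive astrocytes, rose with vehicle (1.64 ± 0.31, adjusted p = 0.0201) and with lactate (2.47 ± 0.18, adjusted p = 1.99e-06). It alone of the 5 astrocyte markers was called, and their median log2 fold change was 0.08 with vehicle and 0.12 with lactate. Aqp4, Slc1a2, Aldh1l1 and Gja1 were not called in either comparison. The part of these cells in the levels of Itgb2 and Cd44 was not tested.

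Tie1, the co-receptor of Tek, fell with lactate (log2 -1.22 ± 0.30 SE, adjusted p = 0.0198, edgeR) and was at -1.01 ± 0.37 (adjusted p = 0.2501) with vehicle. Tek was at 2.34 to 4.07 CPM in sham mice, 0.124 to 2.20 CPM with vehicle and 0.120 to 2.78 CPM with lactate. Its log2 fold change was -1.51 ± 0.51 (adjusted p = 0.215) with vehicle and -1.38 ± 0.57 (adjusted p = 0.137) with lactate. Angpt1, the agonist ligand, was at 0.960 ± 0.340 CPM in sham mice, 0.918 ± 0.184 CPM with vehicle and 1.05 ± 0.625 CPM with lactate (SD, n = 4). Angptl4, a secreted inhibitor of lipoprotein lipase that shares only sequence with the angiopoietins, rose with vehicle (2.51 ± 0.45, adjusted p = 0.0145) and with lactate (2.64 ± 0.34, adjusted p = 0.000417). Vegfa, the growth factor upstream of Esm1, rose with lactate (0.94 ± 0.25, adjusted p = 0.0275) and was at 1.28 ± 0.36 (adjusted p = 0.134) with vehicle.

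Coagulation genes beside Vwf were called in the upward direction alone. Plat, the tissue plasminogen activator, rose with vehicle (log2 1.35 ± 0.23 SE, adjusted p = 0.0104, edgeR) and with lactate (1.11 ± 0.20, adjusted p = 0.00354). Thbd, or thrombomodulin, rose with lactate (1.13 ± 0.25, adjusted p = 0.0118), and so did F3, or tissue factor (0.68 ± 0.16, adjusted p = 0.0171). With vehicle they were at 1.15 ± 0.32 (adjusted p = 0.123) and 0.45 ± 0.19 (adjusted p = 0.327). Of the 8 coagulation genes, 5 were tested with vehicle and 6 with lactate. In edgeR 1 was called with vehicle and 3 with lactate, and DESeq2 and limma voom called 2 each with vehicle. Over all genes tested, edgeR called 1.29% higher and 0.182% lower with vehicle and 8.76% higher and 3.55% lower with lactate. Among 13 junction and vessel-wall adhesion genes, 11 were tested. With vehicle 0 were called by edgeR, DESeq2 or limma voom, with 2 at an unadjusted p under 0.05. Esam, a junction adhesion molecule of endothelium, rose with lactate (0.68 ± 0.14, adjusted p = 0.00917) and was the only one called by edgeR. DESeq2 and limma voom called 2 each with lactate, Esam and Cd34, a surface sialomucin of endothelium, which was at -0.51 ± 0.17 in edgeR (adjusted p = 0.0655). Icam2, a further integrin ligand, was at -0.96 ± 0.40 (adjusted p = 0.138). Cd34 and Icam2 were singled out after their values were seen. Of the 5 tested genes of the TGF-beta list, the pathway that Lrg1 modulates, 0 were called against sham in either comparison by any of these tools, and 0 had an unadjusted p under 0.05.

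The cytokine list holds inputs and feedback of endothelial activation. Ccl2, a monocyte chemokine, had 3 counts over the sham mice, 114 with vehicle and 103 with lactate. It rose with vehicle (adjusted p = 0.00249, edgeR) and with lactate (adjusted p = 0.000238). Nfkbia, the feedback inhibitor of NF-kappa B, rose from 11.1 ± 1.55 CPM in sham mice to 33.5 ± 3.96 CPM with vehicle and 34.0 ± 1.90 CPM with lactate (SD, n = 4), with adjusted p of 0.000157 and 8.19e-06. Il1r1, the interleukin 1 receptor, rose with vehicle (log2 1.35 ± 0.26 SE, adjusted p = 0.0222) and with lactate (1.55 ± 0.24, adjusted p = 0.00149). Tnfrsf1a, a TNF receptor, rose with lactate (1.36 ± 0.20, adjusted p = 0.00114) and was at 0.93 ± 0.28 (adjusted p = 0.165) with vehicle. Over all 63 pathway genes, 44 were tested against sham. Ccl2 and Cd44 were under 1 CPM in every sham mouse and passed the filter through the ischemic mice alone, so the counts and medians describe only the genes tested. With vehicle 6 rose and 0 fell, and with lactate 12 rose and 1 fell. Over all genes tested, 1.29% were higher and 0.182% lower with vehicle, and 8.76% higher and 3.55% lower with lactate. The median log2 fold change of the tested pathway genes was 0.12 and 0.14, against 0.003 and -0.03 over all genes. Between lactate and vehicle, 0 of 47 were called by edgeR, DESeq2 or limma voom, with 3 at an unadjusted p under 0.05. Over 16 other settings, the calls of Ccl2, Nfkbia, Esam, Thbd and Tnfrsf1a held wherever the gene could be tested. Itgb2 with lactate lost its call in 11 of them (adjusted p up to 0.117) and Vegfa with lactate in 6 (up to 0.112). With vehicle, Cd44 and Il1r1 lost theirs in 5 each (up to 0.123 and 0.0900), Angptl4 in 3 (up to 0.0641) and Plat in 2 (up to 0.0514). F3 and Tie1 with lactate lost theirs in 2 each (up to 0.0545 and 0.0590).

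**Figure D3:**
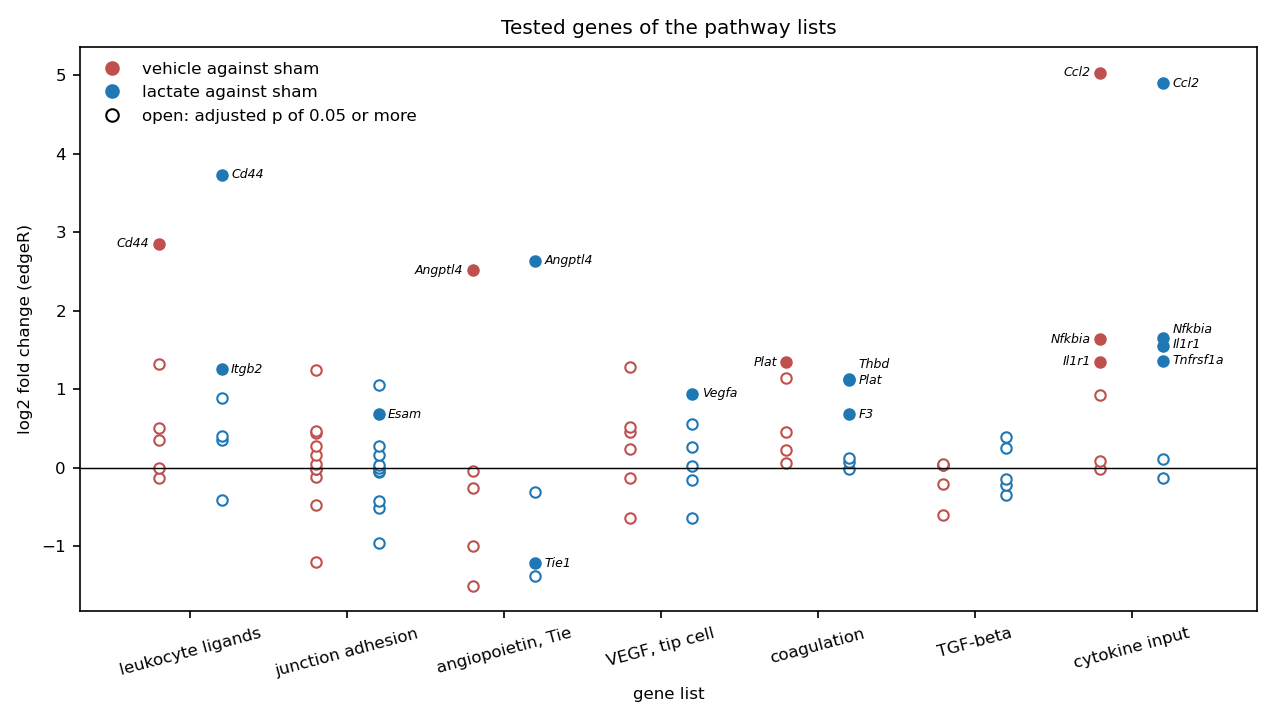
Log2 fold changes against sham of the tested genes of 7 pathway lists, each point a gene, with vehicle on the left and lactate on the right of each list. Filled, named points have an adjusted p under 0.05. Ccl2, Cd44 and Angptl4 are the highest named points in both comparisons, and Tie1 (-1.22, lactate) is the only filled point below 0.

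Markers of cells that also make some members were measured beside them. Lrg1 is also made by neutrophils, and Selp and Vwf by platelets. The 9 neutrophil markers summed to 3.34 to 7.65 CPM in sham mice, 12.2 to 76.3 CPM with vehicle and 20.8 to 43.9 CPM with lactate. S100a8 and S100a9 rose in both comparisons. Of the other markers tested, Csf3r was at -0.97 ± 0.80 (adjusted p = 0.648, edgeR) with vehicle and -0.06 ± 0.54 (adjusted p = 0.956) with lactate, and Cxcr2 at 0.38 ± 0.25 (adjusted p = 0.541) and -0.28 ± 0.32 (adjusted p = 0.626). Retnlg had 4 counts over the sham mice, 98 with vehicle and 96 with lactate. It rose with lactate (log2 4.46 ± 0.74 SE, adjusted p = 0.00236, edgeR), while it was too low to be tested with vehicle. It was at most 0.527 CPM in sham mice and passed the filter through the lactate-treated mice alone (1.16 to 4.07 CPM). The contrast of a call with lactate and no test with vehicle thus comes from the filter. The defining markers Ly6g and Camp were at 0 in sham mice and had 1 or 2 counts over each ischemic group. Among the vehicle-treated mice, neutrophil markers were highest in mouse 3 (76.3 CPM) and mouse 2 (57.5 CPM), while Lrg1 was highest in mouse 1 (15.7 CPM of neutrophil markers) and lowest in mouse 2. The sums of the 6 platelet markers overlapped between the groups, with Ppbp at 0 in the sham and lactate-treated mice, and of the 3 tested Itga2b rose with lactate. The part of these cells in the levels of the members was not tested.

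Endothelial markers themselves did not move one way. Of the 12, Slc2a1, the glucose transporter of the blood-brain barrier, rose with vehicle (log2 1.33 ± 0.18 SE, adjusted p = 0.00182, edgeR). With lactate, Slc2a1, Ly6c1 and Esam rose, and Egfl7, Slco1c1 and Itm2a fell. Their summed level was higher in every lactate-treated mouse than in any sham mouse, with Slc2a1 at 45.3 ± 6.79 CPM in sham mice and 124 ± 14.7 CPM with lactate and Ly6c1 at 74.7 and 133 CPM (means, n = 4). Their median log2 fold change was 0.08 with vehicle and -0.01 with lactate. Of 7 pericyte markers, 6 were tested and 0 were called against sham by edgeR, DESeq2 or limma voom, with 0 (vehicle) and 2 (lactate) at an unadjusted p under 0.05. Red cell markers, a measure of blood in the tissue, summed to 560 to 633 CPM in sham mice, 333 to 500 CPM with vehicle and 375 to 499 CPM with lactate, so both ischemic groups lay below sham.

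**Figure D4:**
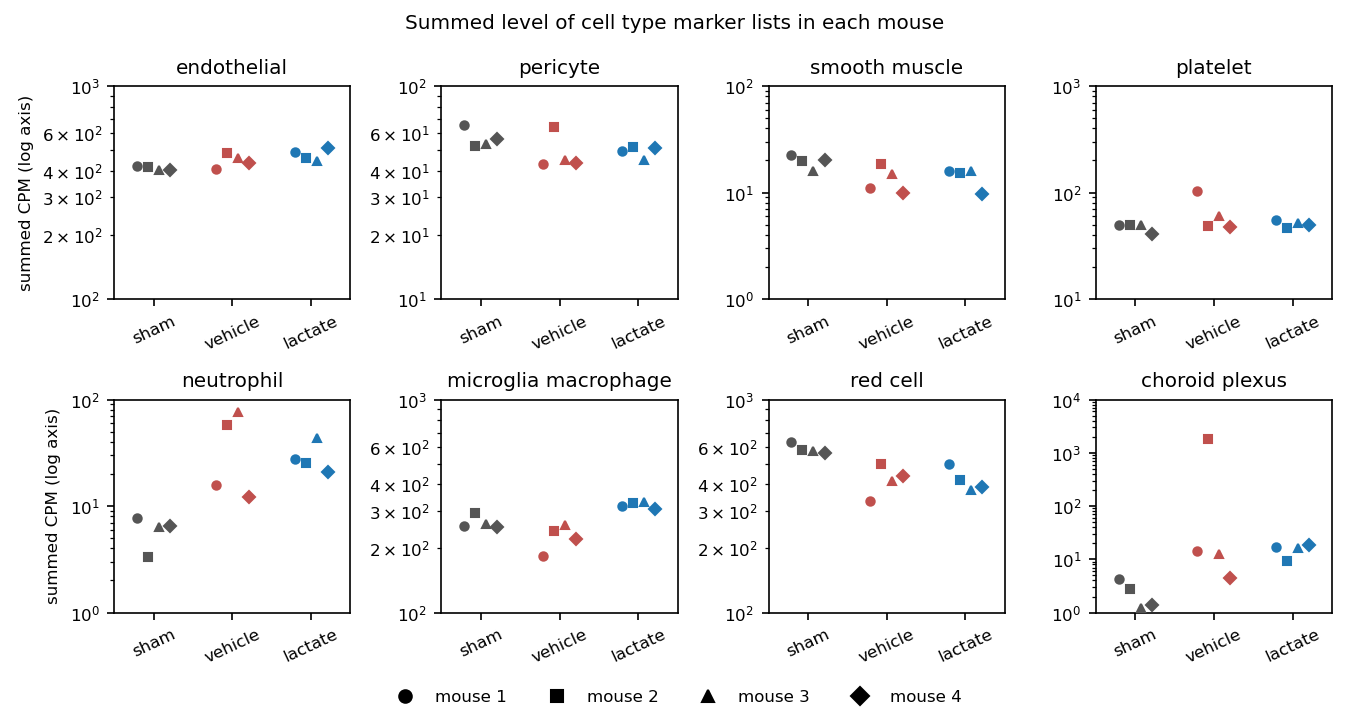
Summed CPM of 8 marker lists in each of the 12 mice, on log axes that differ between lists. Endothelial sums are 401 to 419 CPM in sham mice and higher in every lactate-treated mouse (446 to 512 CPM), neutrophil sums are higher in every ischemic mouse than in any sham mouse, and vehicle mouse 2 stands apart by choroid plexus markers (1841 CPM).

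The members did not form a single pattern over the 12 mice. The mean standardised level of the 8 members with at least 1 CPM in at least 4 mice ran from -0.79 to -0.09 in sham mice, 0.07 to 0.20 with vehicle and 0.18 to 0.50 with lactate. Esm1 reached 1 CPM in ischemic mice alone, and Angpt2 in 1 of 4 sham mice, so the filter itself favours a mean that is higher in ischemic mice, and each member is part of the mean it is compared with. The members entering this mean correlated with it by Pearson's r of 0.84 (Lrg1 and Angpt2), 0.79 (Esm1), 0.68 (Icam1), 0.65 (Tm4sf1), 0.21 (Vcam1), -0.23 (Vwf) and -0.35 (Apln). The 5 other genes most like the mean, of 18134 compared, were Lgals3 (0.957), Picalm (0.954), Ifitm2 (0.936), Slc41a1 (0.935) and Il4ra (0.931). These correlations are over 12 mice in 3 groups that differ in level and share libraries with the members, and they describe likeness only.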

How the data were processed

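Full-length cDNA of brain RNA was amplified by PCR and sequenced as nanopore reads by the authors, who mapped full-length reads with minimap2 and deposited read counts per gene without normalization. The authors also deposited CPM values, each count divided by the total of its mouse. Per the labels' processing notes the genome build is GRCm38 and DESeq 1.10.1 was used, while the methods name another version of DESeq and the deposited comparison columns are headed edgeR. The way reads were assigned to genes is not given in the sources used here. The deposited p-values and fold changes of the authors' own comparisons were not used.

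Groups came from the sample labels. The table lists 31208 genes, and 4 lines without a gene were left out. The compared groups alone entered each fit with edgeR 4.0.16 in R 4.3.3 (TMM, quasi-likelihood test, genes reaching 1 CPM in 4 or more of the 8 mice), and a gene was called at a Benjamini-Hochberg adjusted p under 0.05 over all genes tested. Members under the filter were compared by two-sided exact permutation tests of log2(CPM + 1) and by pooled counts with exact intervals. Nothing in the labels says how the mice were kept or processed together, so p-values measure the spread between these mice. Intervals and the floor of 3 counts cover counting error only, since reads carry no molecular identifiers. No pair of replicate libraries agreed within sampling noise (chi-square per degree of freedom 5.28 to 36.2).

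The members and gene lists were chosen with earlier results of these data known. All 10 members are named, and from the pathway lists every gene called in at least 1 comparison, up to 6 per list, with the direct partners Tek, Aplnr, Itgal, Itgb2, Itga4 and Selplg; Angpt1, Ccl2 counts and cell markers are given beside them, and Angpt1 was chosen after its values were seen. The fits were tested on simulated data, in which 66, 62 and 77 of 100 genes changed 2-fold and 98, 100 and 100 of 100 changed 4-fold were recovered in vehicle against sham, lactate against sham and lactate against vehicle. The changed genes were drawn from those with a mean of at least 2 CPM, and every gene was given the same dispersion. The rates therefore do not describe members under that level, among them Sele, Selp and Esm1, or genes with more spread between mice. The alternatives were DESeq2 1.42.0, limma 3.58.1 voom with sample quality weights, DESeq2 size factors, other filters, 1 fit of all 12 mice, the replicate number as a block, unadjusted p-values with a fold of 1.5, Ensembl genes only, a pseudocount of 0.25 and leaving out each mouse. Python 3.11.15, pandas 2.3.3 and scipy 1.17.1 were used.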

Additional observations from a re-analysis of the deposited data

Results flagged for a closer look

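Of 69 groups of 4 mice examined (10 members and 13 marker lists), 9 held a mouse whose distance from the others passed Dixon's 95% limit, and chance flags about 1 in 20 groups. Among the members, Selp was at 0.132 CPM in sham mouse 1 and at 0 in the other sham mice, a difference of 1 read. Apln was at 2.05 CPM in vehicle mouse 4 against 2.98 to 3.09 CPM in the other vehicle-treated mice.

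The other 7 were sums of cell markers. Choroid plexus markers were at 1841 CPM in vehicle mouse 2 against 4.40 to 14.5 CPM, and pericyte markers in the same mouse at 64.0 CPM against 42.9 to 44.8 CPM. Neuron markers were at 5481 CPM in vehicle mouse 1 against 3594 to 3854 CPM. Smooth muscle markers were at 9.74 CPM in lactate mouse 4 against 15.2 to 16.1 CPM, and oligodendrocyte markers at 9432 CPM in lactate mouse 1 against 8367 to 8491 CPM. Platelet markers were at 40.6 CPM in sham mouse 4 against 49.1 to 49.98 CPM, and microglia and macrophage markers at 292 CPM in sham mouse 2 against 253 to 259 CPM.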

How the results depend on the processing

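The direction of Lrg1, Angpt2, Icam1 and Tm4sf1 was the same in all 17 alternatives of each comparison, and Lrg1 and Angpt2 were called with lactate in all of them. With vehicle, 2 members in place of 1 were called with DESeq2, limma voom, no filter, 1 fit of all 12 mice and the replicate block, 3 by unadjusted p, and 0 to 2 with a mouse left out. Over all genes, vehicle against sham gave 250 calls, 476 with DESeq2, 395 with voom, 1620 by unadjusted p and 114 to 369 with a mouse left out. Lactate against sham gave 2124, 1003 with Ensembl genes only and 1295 to 1934 with a mouse left out. Lactate against vehicle gave 1 gene, 62 with DESeq2, 2 each with voom, no filter or Ensembl genes only, 1085 by unadjusted p and 0 to 5 with a mouse left out. Pathway genes called with vehicle were 6, 12 by unadjusted p and 2 to 5 with a mouse left out, with lactate 13 and 8 to 13 with a mouse left out, and between lactate and vehicle 0, or 1 by unadjusted p.

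Signs turned only in comparisons in which no setting called the member. For Vwf with vehicle the log2 fold change was -0.0019 with DESeq2, -0.72 with voom, -0.23 with the replicate block and -0.88 to 0.28 with a mouse left out, and between lactate and vehicle 0.27 with voom and -0.72 to 0.44 with a mouse left out. With a mouse left out, Vcam1 with vehicle ran from -0.44 to 0.085, and between lactate and vehicle Esm1 ran from -0.012 to 0.58 and Apln from -0.49 to 0.011. The cause was not tested. The deviations of same-numbered mice from their group means correlated by -0.184 to 0.187 over genes. Differently numbered mice were not compared in this way, so whether the numbers pair mice cannot be told. With the replicate block, 198, 2283 and 1 genes were called in vehicle against sham, lactate against sham and lactate against vehicle. Depth limits Sele, Selp and Esm1, which had at most 16 counts in a mouse.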
